A study of Homo sapiens with 6 samples.

Results

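The kinetochore, centromere and spindle checkpoint genes form a set of 47 named genes, all of them rows of a deposited table of 60612 genes, and all 47 were among the 13748 genes tested. They were chosen by gene symbol from a list of known subunits and not from a measured value, although results of these data were known when the list was made. The data are 6 RNA-seq libraries of a culture that the labels call Hep3B, an established line from human liver cancer. Of these, 3 (siEIF4G2) come from cells treated at 50 nM with small interfering RNA against EIF4G2, and 3 (siNC) from cells treated at 50 nM with the control siRNA that the labels call NC. EIF4G2 is a translation initiation factor, and no other agent or genotype is named for either group. The labels name neither separate cultures nor more than 1 small interfering RNA sequence, so p-values measure the spread between these libraries only, which may be technical.

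The kinetochore is the protein machine on each centromere that holds a chromosome to spindle microtubules. It is built on nucleosomes that carry the histone variant CENP-A, which the constitutive centromere network binds through the cell cycle, and in mitosis that network recruits KNL1, the MIS12 complex and the NDC80 complex, which grips the microtubule. The spindle checkpoint proteins gather at kinetochores without a microtubule and hold back the anaphase-promoting complex, while the chromosomal passenger complex releases wrong attachments. Messenger RNAs of many of these genes are made mostly in late S, G2 and M phase, under the MuvB, MYBL2 and FOXM1 factors, whereas others are made through the whole cycle.

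Total counts were between 63351653 and 72863628 per library, and the members had 328 to 27629 counts in each. EIF4G2 itself read 17.9, 17.6 and 20.05 FPKM in siEIF4G2 replicates 1, 2 and 3 against 107.4, 89.4 and 97.8 FPKM in the siNC replicates, 5.41-fold lower. FPKM, the fragment count corrected for gene length and library depth, is used here for levels, while fold changes and tests come from the counts with edgeR, with adjusted p under 0.05 as the threshold. Of 16 hepatocyte markers, which include ALB, AFP, APOA1 and APOB, 11 were listed at 0 counts in all 6 libraries and none reached the filter for testing, so the defining markers of the labelled tissue were absent. Fibroblast and stromal markers summed to 623 to 660 CPM (depth-scaled counts) in siEIF4G2 and 534 to 562 CPM in siNC. Of the 5 tested, COL3A1, LUM and DCN rose (log2 fold changes 0.35, 0.38 and 0.73), while PDGFRB and COL1A1 fell (-1.19 and -0.43). Immune and endothelial markers summed to 23.7 to 28.6 CPM in siEIF4G2 and 41.6 to 47.8 CPM in siNC, and both that were tested, CD68 and CDH5, fell. Of the fibroblast list 0 of 8 genes and of the immune and endothelial list 3 of 9, among them PTPRC and CD3E, were at 0 in all libraries. COL1A2, THY1 and PDGFRA did not reach the filter, with at most 1.67, 1.18 and 0.67 CPM in any library. CD14, LYZ, PECAM1 and VWF did not reach it either, with at most 0.83 CPM. Nearly all of the immune and endothelial sum thus came from CD68 and CDH5. Adipocyte markers, looked at because the protocol text speaks of fat tissue, summed to 39.1 to 43.8 and 34.2 to 36.5 CPM, nearly all of it from LPL and PPARG, while 4 of the 8, ADIPOQ, LEP, CIDEC and CIDEA, were at 0 in all libraries. The part of these differences in the results below was not tested.

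Most kinetochore genes were higher after EIF4G2 silencing. Of the 47 members, 31 rose, 1 fell (CENPH) and 15 did not pass, while 15.9% of all tested genes rose and 17.6% fell, 33.4% in all. The median log2 fold change was 0.54 over the members and 0.01 over all tested genes. The rises were modest: 18 members rose at least 1.5-fold, a size that 4.64% of all tested genes reached upward, and CENPA alone rose more than 2-fold. The 3 siEIF4G2 values lay above all 3 siNC values for 36 members and below them for 1, against 25.0% and 25.5% of all tested genes. Leaving out 1 library at a time gave 28 to 30 rises and 0 falls. In bulk RNA a larger share of cells in G2 and mitosis and more of these messenger RNAs per cell cannot be told apart.

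**Figure D1:**
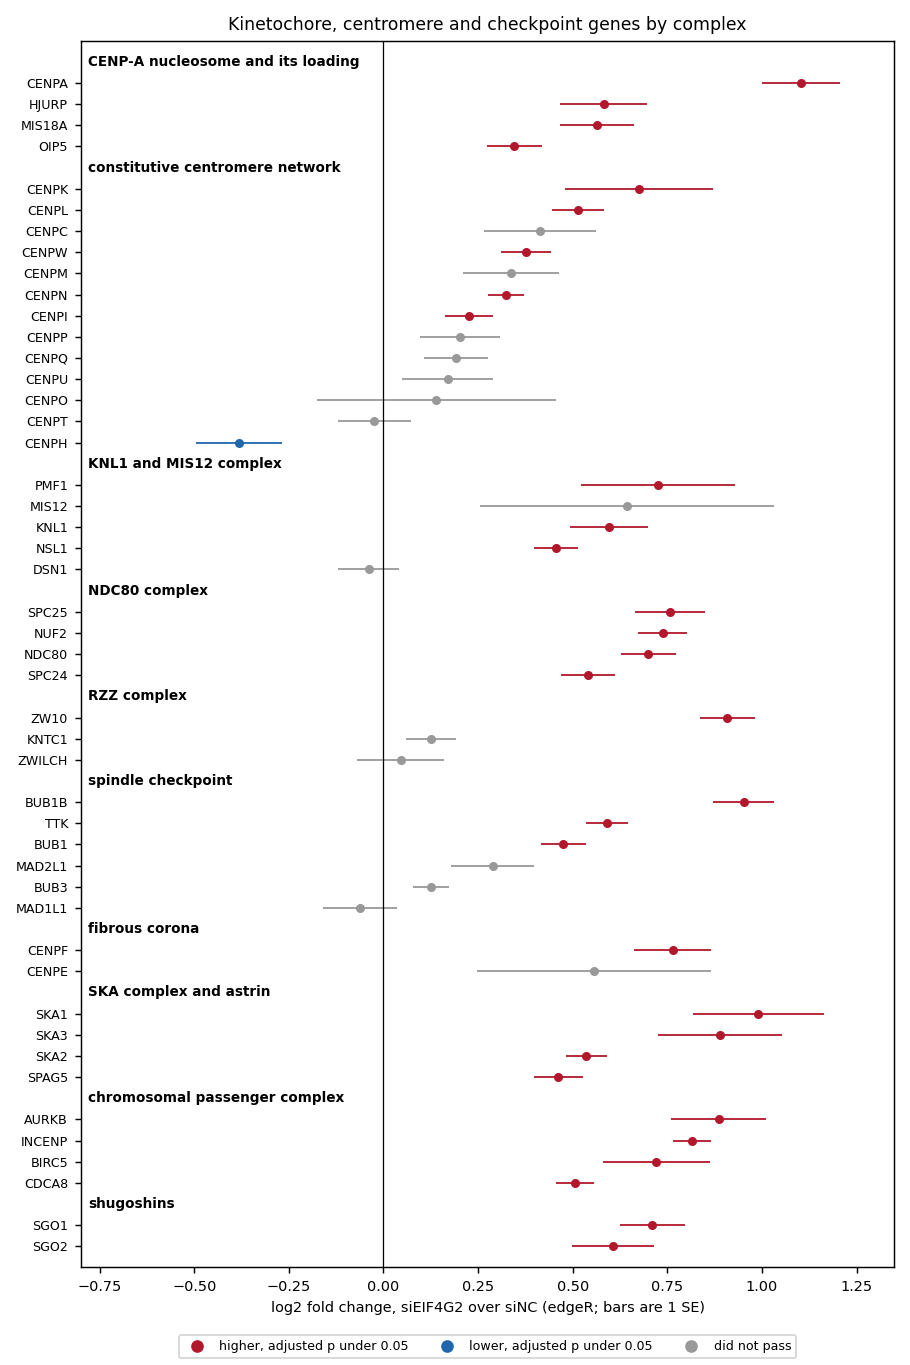
Log2 fold change of each of the 47 genes, siEIF4G2 over siNC, in blocks by complex, from the edgeR fit with bars of 1 SE (n = 3 libraries per group). Red points rose, the blue point (CENPH) fell and grey points did not pass, and the 4 NDC80 complex genes and the 4 chromosomal passenger genes are all red.

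The promoters of several members are shown because members that move together may share letters that known cell cycle factors bind. A 300-base window, from 250 bases before the RefSeq start site to 50 bases from it, was found for 38 of the 47 members in GRCh38.p14. Shown first are the rising members with the largest fold changes among those with the core of the cell cycle homology region (TTTGAA, called CHR), the element that the MuvB factors bind. CENPA lies at chr2:26785806-26786105 on the plus strand, SKA1 at chr18:50374796-50375095 on the plus strand, BUB1B at chr15:40160819-40161118 on the plus strand and ZW10 at chr11:113773643-113773942 on the minus strand. The windows of CENPT (chr16:67847644-67847943, minus strand) and DSN1 (chr20:36773714-36774013, minus strand) follow, 2 members that did not pass and had the smallest fold changes among those with a window. Each is written 5′ to 3′ along the gene, and capitals mark every match, on either strand, to TTTGAA, its variant TTCGAA, the NF-Y box CCAAT, or the E2F forms TTTCCCGC and TTTGGCGC.
CENPA: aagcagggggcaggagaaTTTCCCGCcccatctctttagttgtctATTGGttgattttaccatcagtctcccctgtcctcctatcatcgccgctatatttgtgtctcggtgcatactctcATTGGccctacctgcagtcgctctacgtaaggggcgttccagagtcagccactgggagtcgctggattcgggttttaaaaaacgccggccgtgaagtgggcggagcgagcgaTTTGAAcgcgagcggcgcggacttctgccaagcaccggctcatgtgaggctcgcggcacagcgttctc
SKA1: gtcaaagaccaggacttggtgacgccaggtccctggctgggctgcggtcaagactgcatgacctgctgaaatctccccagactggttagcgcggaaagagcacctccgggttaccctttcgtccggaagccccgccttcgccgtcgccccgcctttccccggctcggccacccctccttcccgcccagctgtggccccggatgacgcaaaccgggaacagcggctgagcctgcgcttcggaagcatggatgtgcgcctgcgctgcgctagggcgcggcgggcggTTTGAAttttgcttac
BUB1B: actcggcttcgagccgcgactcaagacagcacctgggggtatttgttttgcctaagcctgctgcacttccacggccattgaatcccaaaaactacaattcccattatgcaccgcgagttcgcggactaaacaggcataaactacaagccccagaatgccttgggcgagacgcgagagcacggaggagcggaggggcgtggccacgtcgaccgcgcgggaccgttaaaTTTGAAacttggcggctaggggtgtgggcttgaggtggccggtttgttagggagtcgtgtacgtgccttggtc
ZW10: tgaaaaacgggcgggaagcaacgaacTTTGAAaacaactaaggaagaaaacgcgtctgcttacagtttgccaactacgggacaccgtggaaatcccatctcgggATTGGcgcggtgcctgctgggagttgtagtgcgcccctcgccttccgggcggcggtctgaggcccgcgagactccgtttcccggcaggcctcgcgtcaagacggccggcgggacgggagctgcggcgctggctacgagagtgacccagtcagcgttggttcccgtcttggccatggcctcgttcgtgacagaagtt
CENPT: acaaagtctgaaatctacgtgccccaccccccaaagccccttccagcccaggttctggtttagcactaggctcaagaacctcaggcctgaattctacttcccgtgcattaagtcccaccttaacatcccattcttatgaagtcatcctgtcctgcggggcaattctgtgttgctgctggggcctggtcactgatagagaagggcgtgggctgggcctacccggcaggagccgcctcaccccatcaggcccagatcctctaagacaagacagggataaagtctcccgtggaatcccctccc
DSN1: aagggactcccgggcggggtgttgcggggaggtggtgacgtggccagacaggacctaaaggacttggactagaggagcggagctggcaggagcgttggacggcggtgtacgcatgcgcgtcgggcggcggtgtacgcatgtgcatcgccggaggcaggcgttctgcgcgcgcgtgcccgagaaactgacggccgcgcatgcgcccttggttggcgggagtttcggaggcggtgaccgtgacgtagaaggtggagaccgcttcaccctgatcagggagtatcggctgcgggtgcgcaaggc

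Counting from the start site, with the last base before it as -1, the first base of the CHR core stood at -18 in CENPA, -23 in BUB1B, 35 in SKA1 and -224 in ZW10. CENPA also held a pair of NF-Y boxes and an E2F form, and ZW10 an NF-Y box, while the windows of CENPT and DSN1 held none of these letters. The rising members shown were picked for TTTGAA and CENPT and DSN1 were not, so the printed windows cannot compare rising members with the rest. TTTGAA was found in 17 of the 38 windows (44.7%), against 15.4% of 27305 RefSeq windows of the same length and 9.43% of the 9375 that belong to tested genes. TTCGAA, which reads the same on both strands, was in 5 members (13.2%), namely BUB1, CENPW, NDC80, OIP5 and SGO1, against 1.45% of all windows and 1.72% of those of tested genes. CCAAT was in 24 members (63.2%) against 35.7% of all windows and 37.1% of those of tested genes. TTTCCCGC was in 2 members (5.26%), against 1.66% of all windows and 2.84% of those of tested genes. TTTGGCGC was in 1 member (2.63%), against 0.659% and 1.16%.

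Either CHR form was in 18 of the 26 rising members with a window and in 3 of the 12 that did not pass (CENPC, CENPO and MAD2L1). The matches gathered at the start site. Within 50 bases of it on either side, a range set after the positions were seen, 18 of 38 members (47.4%) had a CHR form, against 5.05% of all windows and 3.15% of those of tested genes. Of these 18, 16 rose and 2 did not pass. A pair of matches overlapped in 1 window, that of CDCA8, where a CHR core and an NF-Y box share 1 base. A match of letters is no evidence of binding, these shares were not tested, and ZW10, which rose 1.88-fold, has its only CHR form far from the start site.

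**Figure D2:**
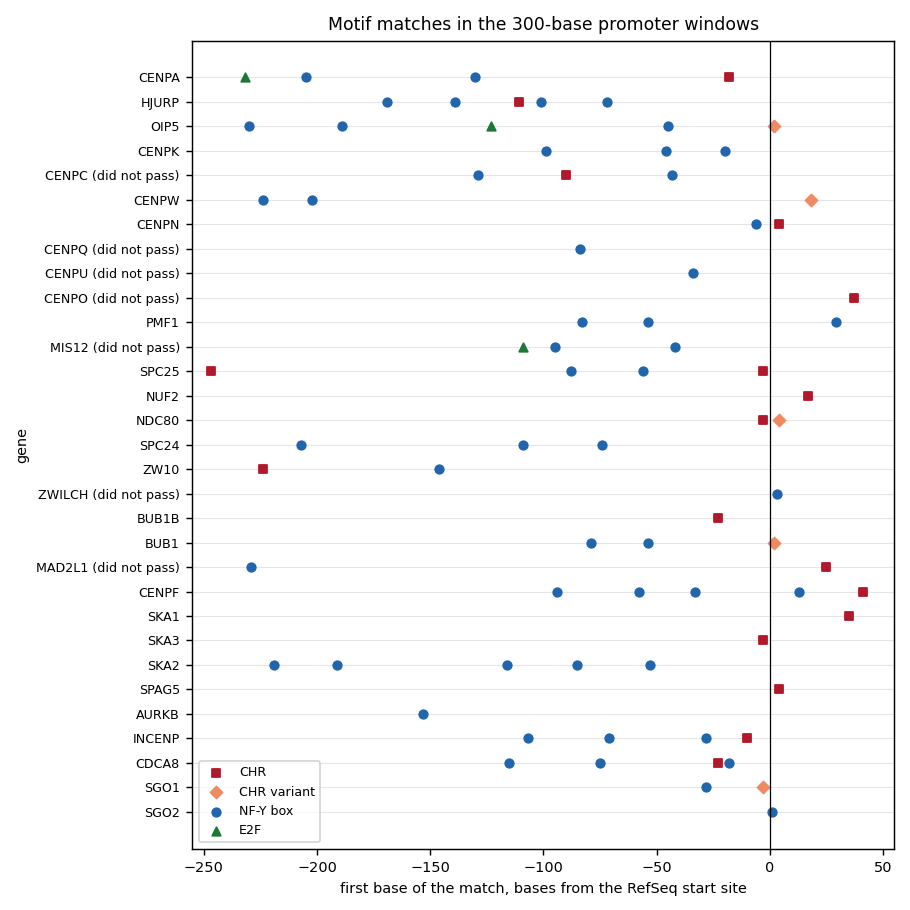
Position of each motif match (first base, in bases from the RefSeq start site at the vertical line) in the members that have at least 1 match, with genes in the order of the complexes. CHR forms (red and orange) stand close to the start site in most genes, whereas NF-Y boxes (blue) are spread over the bases before it.

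All 4 genes for the CENP-A nucleosome and its loading rose. CENPA (ENSG00000115163, chromosome 2, 26764289 to 26801067, plus strand), the histone H3 variant that marks centromeres, read 10.45, 9.39 and 9.54 FPKM in siEIF4G2 replicates 1, 2 and 3 and 4.42, 4.0 and 4.99 FPKM in siNC. Every siEIF4G2 value stood far above every siNC value, and the gene was 2.15-fold higher (log2 fold change 1.10, SE 0.10, adjusted p = 0.00097). Its deposited interval overlaps SLC35F6 on the same strand, which read a log2 fold change of -0.89 (adjusted p = 0.205). HJURP, the chaperone that places CENP-A, rose 1.497-fold, from 8.60 to 9.99 FPKM in siNC to 12.3 to 16.5 FPKM. MIS18A and OIP5, subunits of the MIS18 complex that licenses the centromere for new CENP-A, rose 1.48-fold and 1.27-fold. OIP5 read 19.7, 19.1 and 19.9 FPKM against 14.5, 16.4 and 14.35 FPKM, so the groups did not overlap (adjusted p = 0.014). Without siNC replicate 1 its adjusted p was 0.0547. OIP5 also overlaps NUSAP1 and OIP5-AS1 on the opposite strand, with log2 fold changes of 0.96 and -0.39, and whether counting used strand is not stated in the labels or headers.

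The constitutive centromere network was the most mixed group, with 5 of 13 genes higher, 1 lower and 7 not past the threshold, and the median log2 fold change was 0.23. CENPL and CENPN, which form 1 unit of the network and of which CENPN recognises the CENP-A nucleosome, rose 1.43-fold and 1.25-fold. CENPW, the histone-fold partner of CENPT, had the highest level of the network, 31.8, 32.0 and 30.2 FPKM against 24.2, 22.45 and 24.5 FPKM, and rose 1.298-fold (adjusted p = 0.00807). CENPT itself (ENSG00000102901, chromosome 16, 67828157 to 67847811, minus strand), which links the DNA to the NDC80 complex, did not differ beyond its spread. It read 4.22, 4.70 and 4.23 FPKM in siEIF4G2 and 3.90, 4.73 and 4.51 FPKM in siNC, fully interleaved (log2 fold change -0.02, SE 0.10, adjusted p = 0.874). The pair of histone-fold partners thus had different calls, a difference that was not tested. The interval of CENPT overlaps NUTF2 and THAP11 on the opposite strand, with means of 8958 and 1634 counts against 2033 for CENPT.

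The 4 subunits of the CENP-H/I/K/M unit read in both directions. CENPK (chromosome 5, 65517766 to 65563168, minus strand) read 4.31, 4.705 and 4.77 FPKM in siEIF4G2 and 1.99, 3.23 and 3.25 FPKM in siNC, 1.597-fold higher (adjusted p = 0.0416), with siNC replicate 1 far below the other two. CENPH (ENSG00000153044, chromosome 5, 69189574 to 69210357, plus strand), the one member that fell, read 3.0, 2.57 and 3.07 FPKM against 3.62, 3.38 and 4.06 FPKM, 1.304-fold lower (log2 fold change -0.38, SE 0.11, adjusted p = 0.0455). CENPI rose 1.17-fold (adjusted p = 0.0369) and CENPM read 14.3 ± 1.52 against 11.1 ± 1.33 FPKM (SD, n = 3; adjusted p = 0.0875). These calls are close to the threshold. The call of CENPH was lost whichever of the 6 libraries was left out (adjusted p 0.0542 to 0.122). That of CENPI was lost for each library except siEIF4G2 replicate 2 (0.0708 to 0.102), and that of CENPK for each except siNC replicate 1 (0.0557 to 0.101).

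CENPC, the scaffold that joins CENP-A nucleosomes to the MIS12 complex, had the lowest mean level of all members, 1.33 ± 0.25 FPKM in siEIF4G2 and 0.98 ± 0.08 FPKM in siNC (SD, n = 3; adjusted p = 0.0781). Without siEIF4G2 replicate 2, its lowest siEIF4G2 value, it passed (adjusted p = 0.0202). Of the CENP-O/P/Q/U unit, which helps chromosomes line up, none of the 4 genes passed, with log2 fold changes of 0.14 to 0.20. CENPO was the least reproducible of them, with 5.35, 4.015 and 3.41 FPKM against 2.44, 3.46 and 5.48 FPKM. On leaving out 1 library its log2 fold change of 0.14 ran from -0.10 (siNC replicate 1 left out) to 0.4999 (siNC replicate 3 left out), and its interval overlaps ADCY3 and PTRHD1.

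**Figure D3:**
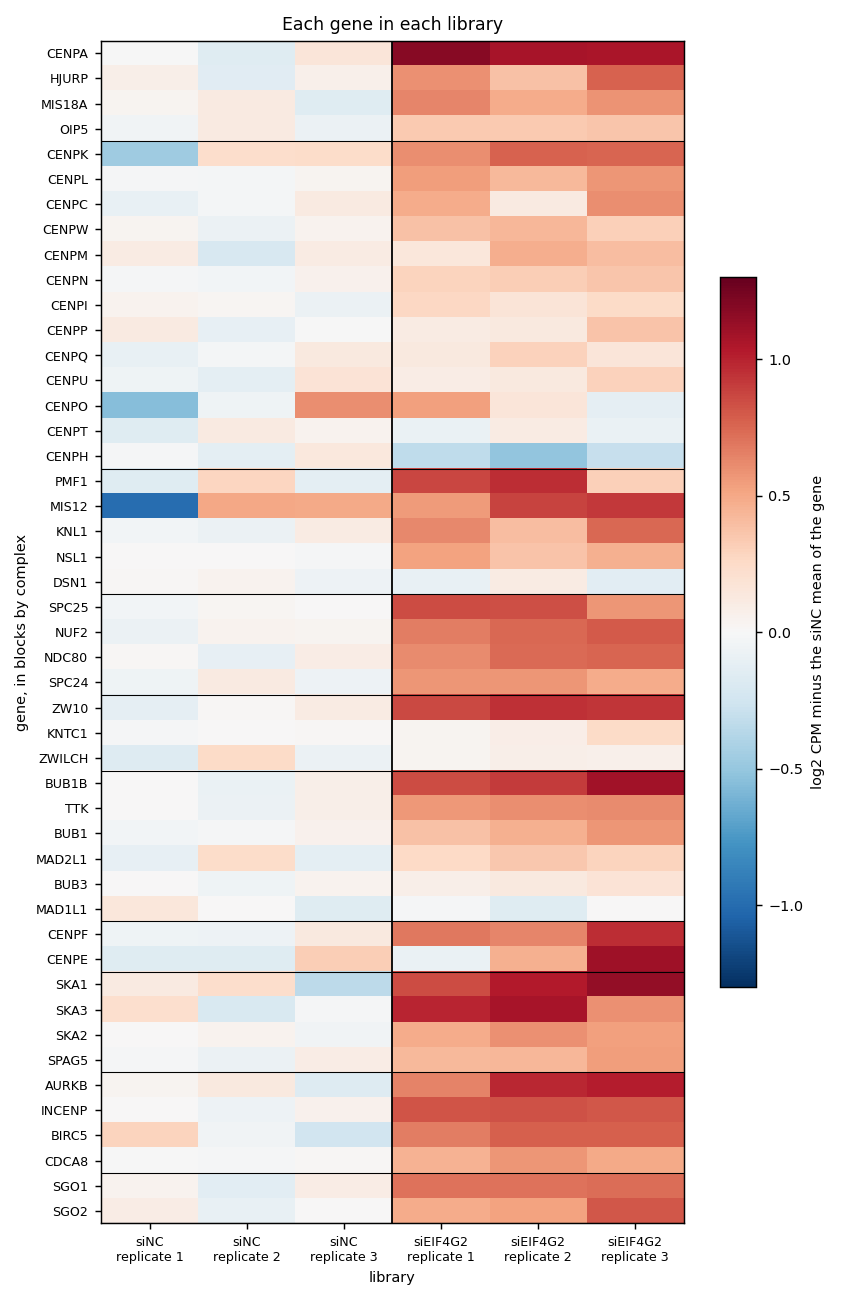
Log2 CPM of each member in each library minus the siNC mean of that gene, with red above and blue below it and blocks separating the complexes. The 3 siEIF4G2 columns are red for most genes, CENPH is blue in all 3 of them, and MIS12, CENPK and CENPO differ between the siNC columns.

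All 4 subunits of the NDC80 complex, which binds the microtubule, rose, with log2 fold changes of 0.54 to 0.76. SPC25 (ENSG00000152253, chromosome 2, 168834132 to 168913371, minus strand) had the largest change, with 13.6, 13.0 and 11.2 FPKM against 7.08, 7.48 and 7.37 FPKM, 1.69-fold higher (SE 0.09 on the log2 scale, adjusted p = 0.00234). SPC24, its partner at the inner end of the rod, had the smallest, with 12.8, 12.4 and 12.02 FPKM against 8.02, 9.08 and 8.01 FPKM, 1.46-fold higher (adjusted p = 0.00299). NDC80 and NUF2, which carry the microtubule-binding heads, rose 1.63-fold and 1.67-fold. On the FPKM scale the 4 subunits stood close to each other in each group, at means of 5.92 (NUF2) to 8.37 FPKM (SPC24) in siNC and 10.1 (NUF2) to 13.5 FPKM (NDC80) in siEIF4G2.

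KNL1, the scaffold for the BUB proteins, rose 1.51-fold, and the 4 genes of the MIS12 complex, the bridge between the centromere and NDC80, differed among themselves. NSL1 rose 1.37-fold, from 1.86 to 1.87 FPKM to 2.42 to 2.75 FPKM (adjusted p = 0.0027). PMF1 (chromosome 1, 156212993 to 156240040, plus strand) read 25.0, 26.05 and 17.0 FPKM against 11.9, 16.3 and 12.3 FPKM, 1.65-fold higher (adjusted p = 0.0376), with siEIF4G2 replicate 3 just above siNC replicate 2. DSN1 read 13.0, 14.5 and 12.5 FPKM against 13.6, 13.9 and 12.9 FPKM, with interleaved groups (log2 fold change -0.04, adjusted p = 0.746). MIS12 read 13.8, 16.8 and 17.8 FPKM against 4.57, 13.0 and 12.9 FPKM, where siNC replicate 1 stood far below all other libraries (log2 fold change 0.64, adjusted p = 0.25). With that library left out the MIS12 value was 0.29 (adjusted p = 0.159). The call of PMF1, which shares its interval with the readthrough gene PMF1-BGLAP, was lost on leaving out any of 4 libraries, namely replicates 1 and 2 of siEIF4G2 and 1 and 3 of siNC (adjusted p 0.0956 to 0.113).

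The RZZ complex, which brings dynein and the MAD1-MAD2 checkpoint proteins to kinetochores, was split. ZW10 (ENSG00000086827, chromosome 11, 113733187 to 113773692, minus strand) read 15.5, 16.1 and 16.2 FPKM in siEIF4G2 and 7.63, 8.425 and 8.96 FPKM in siNC. Those groups were far apart, and the gene was 1.88-fold higher (log2 fold change 0.91, SE 0.07, adjusted p = 0.000638). ZWILCH read 8.36, 8.39 and 8.52 FPKM against 7.04, 9.49 and 7.54 FPKM, with siNC replicate 2 above all siEIF4G2 values (log2 fold change 0.05, adjusted p = 0.793). It overlaps RPL4, a ribosomal protein gene with a mean of 85260 counts. KNTC1 was 5.01 ± 0.42 against 4.505 ± 0.074 FPKM (SD, n = 3; adjusted p = 0.194). ZW10 also works in membrane traffic between the endoplasmic reticulum and the Golgi, outside mitosis.

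**Figure D4:**
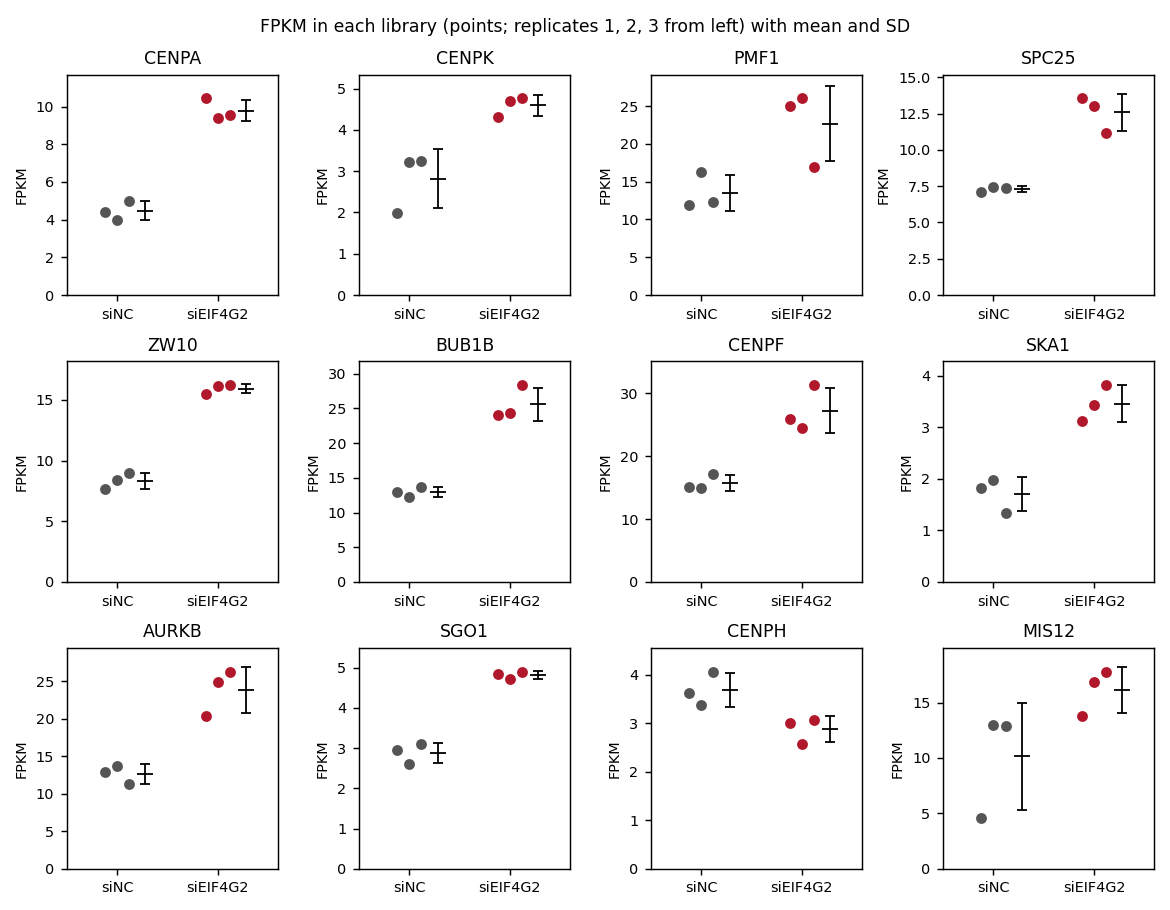
FPKM of 12 members in each library, with the mean and SD of each group (n = 3), on axes that start at 0. Shown are the member with the largest change in each complex, CENPH, the one member that fell, and MIS12, where siNC replicate 1 read 4.57 FPKM.

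Of the 6 spindle checkpoint genes, the 3 kinases and kinase relatives rose and the other 3 did not pass. BUB1B (ENSG00000156970, chromosome 15, 40161023 to 40221038, plus strand), which encodes BUBR1 of the mitotic checkpoint complex, read 24.0, 24.3 and 28.4 FPKM against 12.9, 12.3 and 13.7 FPKM. It was 1.93-fold higher (log2 fold change 0.95, SE 0.08, adjusted p = 0.000723), and PAK6, which overlaps it on the same strand, had a log2 fold change of -1.26. TTK, the MPS1 kinase that starts the checkpoint signal, rose 1.51-fold, and BUB1, the kinase that marks the inner centromere, 1.39-fold. MAD1L1, the platform for MAD2, read 2.62, 2.30 and 2.64 FPKM against 2.83, 2.59 and 2.31 FPKM, with overlapping groups (log2 fold change -0.06, adjusted p = 0.671). BUB3 and MAD2L1 had all 3 siEIF4G2 values above all siNC values but did not pass (log2 fold changes 0.13 and 0.29, adjusted p = 0.0926 and 0.0917). Without siNC replicate 2 MAD2L1 passed, with a log2 fold change of 0.41 (adjusted p = 0.0145). BUB3, at 23.7 ± 0.94 against 21.3 ± 0.76 FPKM (SD, n = 3), had the highest level of the 6 genes in siNC.

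CENPE, a kinesin, and CENPF, a large coiled-coil protein, sit in the fibrous corona that catches microtubules. CENPF (chromosome 1, 214603195 to 214664571, plus strand) read 26.0, 24.4 and 31.3 FPKM against 15.0, 15.0 and 17.2 FPKM, without overlap, and was 1.70-fold higher (log2 fold change 0.76, SE 0.10, adjusted p = 0.0031). CENPE read 2.02, 2.89 and 4.61 FPKM against 1.86, 1.88 and 2.61 FPKM, and its groups overlapped (log2 fold change 0.56, SE 0.31, adjusted p = 0.217). Its spread within siEIF4G2 was a coefficient of variation of 41.5% in FPKM, and without siEIF4G2 replicate 3 its log2 fold change was 0.20.

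The SKA complex, which keeps NDC80 on the ends of microtubules, rose in all 3 subunits. SKA1 (ENSG00000154839, chromosome 18, 50375040 to 50392549, plus strand) read 3.12, 3.44 and 3.82 FPKM against 1.82, 1.97 and 1.33 FPKM, 1.99-fold higher (log2 fold change 0.99, SE 0.17, adjusted p = 0.00787). Every siEIF4G2 value was above every siNC value by more than 1 FPKM. SKA3 rose 1.85-fold, and SKA2, at a mean of 10.99 FPKM in siNC, 1.45-fold. SPAG5, which encodes astrin of the same attachment site, read 22.75, 22.3 and 24.8 FPKM against 16.25, 15.7 and 17.8 FPKM, 1.38-fold higher (adjusted p = 0.0035).

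All 4 genes of the chromosomal passenger complex rose. AURKB (ENSG00000178999, chromosome 17, 8204733 to 8210600, minus strand), the kinase of the complex, read 20.3, 24.8 and 26.2 FPKM against 12.9, 13.75 and 11.25 FPKM, 1.85-fold higher (log2 fold change 0.89, SE 0.13, adjusted p = 0.00366). The lowest siEIF4G2 value was well above the highest siNC value. INCENP, the scaffold that activates it, had the smallest adjusted p of all members (0.000378) and rose 1.76-fold, with 12.4, 12.1 and 12.3 FPKM against 6.84, 6.56 and 7.10 FPKM. BIRC5, survivin, which binds phosphorylated histone H3, rose 1.65-fold, from 3.13 to 4.54 FPKM to 6.08 to 6.52 FPKM. CDCA8, borealin, had the smallest change of the 4, with 22.95, 24.2 and 23.4 FPKM against 16.1, 16.2 and 16.5 FPKM, 1.42-fold higher (adjusted p = 0.0012).

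Both shugoshins, the guardians of cohesion at the centromere, rose. SGO1 (chromosome 3, 20160593 to 20186206, minus strand) read 4.85, 4.71 and 4.90 FPKM against 2.95, 2.61 and 3.09 FPKM, 1.64-fold higher (adjusted p = 0.00224). SGO2 read 3.21, 3.21 and 4.003 FPKM against 2.375, 2.09 and 2.24 FPKM, 1.52-fold higher (adjusted p = 0.0085). In neither gene did the groups overlap.

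Replicates were close for most members. The median coefficient of variation of CPM over the members was 6.27% in siEIF4G2 and 7.69% in siNC, and 5 members (CENPE, CENPK, CENPO, MIS12 and PMF1) exceeded 20% in at least 1 group. The number of members above all 3 siNC libraries was 37 in replicate 1, 40 in replicate 2 and 41 in replicate 3, against 38.1%, 38.0% and 38.1% of all tested genes. The median log2 distance of the members from the siNC mean was 0.52, 0.47 and 0.57. Of the 47 members, 20 overlap another counted gene. The 27 that overlap none held 17 of the rises and the 1 fall, and their median log2 fold change was 0.56, against 0.499 for the 20.

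Other genes of the pathway were read from lists of known function, beside which 15.9% of all tested genes rose and 17.6% fell. Of 29 further genes of kinetochore and centromere proteins, all of them tested, 15 rose, 4 fell and 10 did not pass. Their median log2 fold change was 0.33. The 4 with the smallest p were KIF2C, the depolymerising kinesin of the inner centromere (log2 fold change 0.66), TRIP13, which disassembles MAD2 complexes (0.48), ZWINT, a partner of KNL1 (0.77), and RCC2, a passenger complex regulator (0.56). Falls were read for CLASP1 (-1.06), CENPX (-0.47), NDEL1 (-0.35) and DYNLT3 (-0.20), and the call of CLASP1, the largest change of the list, was close to the threshold. Of 21 genes of the anaphase-promoting complex, its activators and separase, 8 rose, 1 fell and 12 did not pass, with a median of 0.28. The leading ones were ESPL1, separase (0.61), UBE2C, the ubiquitin-loading enzyme (0.73), FBXO5, an inhibitor of the complex (0.60), and PTTG1, securin (0.58). ANAPC11 was the one that fell (-0.43). CDC20, the activator that the checkpoint holds, was 46.45 FPKM on average in siEIF4G2 and 39.3 FPKM in siNC (log2 fold change 0.22, adjusted p = 0.0407), a gene named after its value was seen.

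Markers of the cell cycle moved with the members, and the shares over all tested genes were again 15.9% higher and 17.6% lower. Of 20 markers of G2 and M phase, 17 rose and 0 fell, and their median log2 fold change was 0.52. The 4 with the smallest p were CCNB1, cyclin B1 (0.61), DLGAP5 (0.76), GTSE1 (0.79) and CCNA2, cyclin A2 (0.69). Of 15 markers of G1 and S phase, 9 rose, 1 fell and 5 did not pass, with a median of 0.32, led by RRM2 (0.88), GINS2 (0.68), PCNA (0.42) and CCNE2 (0.52). CCND1, cyclin D1, was the one that fell (-0.35). The 47 members overlap neither list. The list of 17 genes for the MuvB, MYBL2, FOXM1 and NF-Y factors also holds E2F, TFDP and RB family genes. In it 7 rose and 0 fell, with a median of 0.19, and the 4 with the smallest p were MYBL2 (1.17), TFDP1 (0.65), FOXM1 (0.80) and RBL1 (0.58). Among the MuvB core genes LIN9 rose (0.37), while LIN37, LIN52, LIN54 and RBBP4 did not pass (-0.16 to 0.08). NFYA rose (0.38), while NFYB and NFYC did not pass. MYBL2 read a mean of 84.0 FPKM in siEIF4G2 and 36.7 FPKM in siNC. Their part in the rise of the kinetochore genes was not tested.

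**Figure D5:**
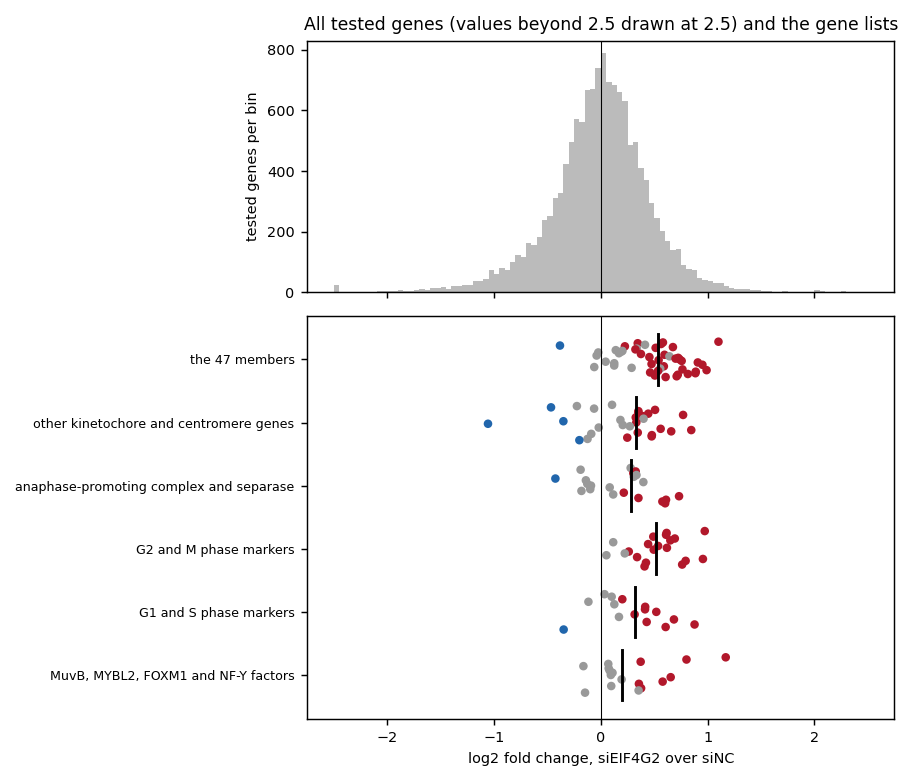
Log2 fold change (siEIF4G2 over siNC) of all 13748 tested genes as a histogram, and below it of each gene of the 6 lists, with black lines at list medians, red for genes that rose, blue for genes that fell and grey for genes that did not pass. The medians of the members (0.54) and of the G2 and M phase markers (0.52) stand to the right of the other lists.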

How the data were processed

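Poly(A) RNA of 6 libraries was read as paired ends, per the labels' protocols. Per the file headers, the authors deposited counts and FPKM per gene and library in 1 table, and HISAT2 2.0 and StringTie 1.3.0 are listed in the submitters' processing notes. No source used here gives the genome build, annotation or strand setting. Gene intervals overlapped GENCODE 29 (GRCh38) for 99.9% of 58394 shared identifiers, so coordinates are given as GRCh38. The deposited counts are whole numbers but estimated counts, since only 19% of 58 low FPKM values, converted back to reads, lay within 0.1 of a whole read. They were used as rounded by the authors.

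One row per symbol (highest mean FPKM) was kept, and genes reaching 0.5 FPKM in 3 or more libraries were tested with edgeR 4.0.16 (quasi-likelihood, TMM, group only, two-sided) in R 4.3.3, with Benjamini-Hochberg adjustment over all 13748 genes. CPM uses library totals scaled by TMM factors. The SE is the absolute log2 fold change over the square root of the F statistic. An exact permutation test of 3 against 3 libraries cannot go below p = 0.1. No 2 libraries of a group agreed within sampling noise (chi-square per gene at least 68.5). The edgeR, limma 3.58.1 and DESeq2 1.42.0 steps were run on simulated counts that varied less than these libraries. That run checks the steps and not the calls made here.

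Members and lists were chosen with earlier results of these data known. In each complex the members with the largest and the smallest absolute change and every member that fell are given per library, with up to 4 genes of smallest p for each other list. Added after their values were seen were BUB3, CENPC, CENPO, CENPW, CENPM, KNTC1, MIS12 and INCENP, the genes of other lists that fell, and the MuvB core and NF-Y genes. Alternatives were other filters, scalings, tools and pseudocounts, a replicate block, summed rows, genes without overlap and leaving out each library.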

Additional observations from a re-analysis of the deposited data

How the results depend on the processing

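Under the alternatives that kept all libraries and all 47 members, the count of 31 rising members was 28 to 32. No filter on low values gave 28, filterByExpr 31, and DESeq2 size factors, library totals or upper quartile factors in edgeR 31 each. DESeq2 gave 32, limma on log2(FPKM + 1) or log2(FPKM + 0.1) 31 each, summed rows 31 and the replicate block 30. The count was 28 to 30 on leaving out 1 library. It was 17 among the 27 members that overlap no other counted gene, since fewer were tested. Of the 31, 27 passed under every alternative that tested them, and no member reversed its direction with a call. The 1 fall, CENPH, was 0 with no filter, with filterByExpr, with library totals only, with the replicate block, and without any 1 library (0 to 0). The median log2 fold change of the members was 0.47 with limma on log2(FPKM + 1), a scale that understates low genes, and 0.47 to 0.55 on leaving out 1 library, the lowest without siNC replicate 1. With the replicate block 30 members rose, and CENPI missed the threshold (adjusted p = 0.0783). Same-numbered libraries of the groups had correlations of 0.001, 0.032 and 0.050 of their deviations from the group means. These small values gave no sign of an effect shared by number, but they cannot show whether same-numbered libraries were prepared together. With DESeq2 CENPC also passed (adjusted p = 0.0393). With no filter the calls of CENPI, CENPK and PMF1 were lost (adjusted p = 0.0637, 0.0646 and 0.0569), and 14.4% of 27064 genes were called in place of 33.4%. With library totals only, 52.0% of all calls were rises in place of 47.5%. EIF4G2 fell under every alternative that tested it. The members had at least 328 counts in each library, and the effect of depth on their calls was not tested.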
